A study of Homo sapiens with 4 samples.

Results

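The binding of USF1 was examined at 10 genes known in hepatocellular carcinoma, MTDH, SND1, TERT, GPC3, MET, TGFBR2, CDKN2A, CDKN2B, ARID1A and KEAP1, out of 20033 protein-coding genes. The genes were taken from a named list. MTDH was chosen by the fold of its peak over input, which was among the strongest at gene ends in both replicates, so its fold and rank are a description with no test. A peak was assigned to a gene when its centre lay in the gene or within 10 kb of it (GRCh38.p14, RefSeq), which gave 14 of 14300 peaks in replicate 1 and 18 of 27325 in replicate 2. Where no peak met this, the nearest one was described.

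The study overexpressed USF1 in Huh7, a human hepatocellular carcinoma cell line, and measured its occupancy by chromatin immunoprecipitation and sequencing (ChIP-seq). The immunoprecipitated (IP) group consisted of 2 libraries of DNA recovered with an anti-FLAG antibody, and the control was 2 libraries of input chromatin from Huh7 cells. The peak list of replicate 1 (list 1) sets IP 1 against input 1, and that of replicate 2 (list 2) sets IP 2 against input 2. IP libraries kept 47165647 and 43942638 tags after removal of duplicates, and input libraries 46345938 and 43562726. Binding was read from an overexpressed, tagged protein, and no library from cells without it was used here. The labels do not say whether the replicates were separate cultures. Peak lists carry no expression values, so the cell line could not be checked against liver markers.

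USF1 is a transcription factor of the basic helix-loop-helix leucine zipper family. It binds as a dimer to E-boxes, short DNA elements of the form CANNTG, and prefers the palindrome CACGTG. The 10 genes act at separate steps of liver tumour growth. MTDH (metadherin) is an oncoprotein that binds the nuclease SND1, and the pair is frequently raised in liver cancer. TERT restores telomeres, GPC3 is a cell surface proteoglycan used as a tumour marker, and MET is the receptor of hepatocyte growth factor. TGFBR2 relays the growth-arresting signal of TGF-beta. CDKN2A and CDKN2B encode inhibitors of the G1 kinases, ARID1A is a chromatin remodelling subunit, and KEAP1 marks the antioxidant factor NRF2 for degradation.

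RefSeq promoter windows on GRCh38.p14, reaching from 250 bases before a gene's start to 50 bases after it, were available for 8 of the 10 genes (11 windows, as some genes have more than 1 start). MTDH and GPC3 were not in the table. The windows shown are those at a start with a shared peak (for TGFBR2 the start nearer to the summits), together with TERT, the other gene whose window holds CACGTG. Every CANNTG is in capitals, each reads 5′ to 3′ on the gene's strand, and since CANNTG is its own complement pattern both strands are covered.
MET (chr7:116671946-116672245, plus strand): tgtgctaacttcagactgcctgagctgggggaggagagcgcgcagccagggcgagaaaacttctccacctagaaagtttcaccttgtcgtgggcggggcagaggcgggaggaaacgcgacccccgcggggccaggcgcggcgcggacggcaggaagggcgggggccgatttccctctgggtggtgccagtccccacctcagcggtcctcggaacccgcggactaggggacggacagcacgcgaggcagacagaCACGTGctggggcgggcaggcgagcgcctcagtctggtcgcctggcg
TGFBR2, downstream start (chr3:30606351-30606650, plus strand): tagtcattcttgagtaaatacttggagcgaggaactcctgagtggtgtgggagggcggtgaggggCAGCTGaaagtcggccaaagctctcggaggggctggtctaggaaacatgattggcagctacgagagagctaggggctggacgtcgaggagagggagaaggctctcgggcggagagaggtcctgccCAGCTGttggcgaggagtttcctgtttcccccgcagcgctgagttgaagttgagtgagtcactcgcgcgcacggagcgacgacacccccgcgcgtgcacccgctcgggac
CDKN2A, inner start (chr9:21974808-21975107, minus strand): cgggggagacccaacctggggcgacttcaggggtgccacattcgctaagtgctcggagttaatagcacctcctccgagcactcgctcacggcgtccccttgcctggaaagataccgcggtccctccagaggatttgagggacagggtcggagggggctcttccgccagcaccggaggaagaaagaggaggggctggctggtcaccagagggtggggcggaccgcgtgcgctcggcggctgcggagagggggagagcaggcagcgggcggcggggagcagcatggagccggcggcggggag
CDKN2B (chr9:22009256-22009555, minus strand): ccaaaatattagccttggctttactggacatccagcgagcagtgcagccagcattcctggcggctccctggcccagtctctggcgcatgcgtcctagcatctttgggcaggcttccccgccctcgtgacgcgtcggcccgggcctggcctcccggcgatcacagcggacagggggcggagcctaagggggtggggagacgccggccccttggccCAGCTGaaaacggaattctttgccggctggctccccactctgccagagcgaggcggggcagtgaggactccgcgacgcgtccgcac
TERT (chr5:1295019-1295318, minus strand): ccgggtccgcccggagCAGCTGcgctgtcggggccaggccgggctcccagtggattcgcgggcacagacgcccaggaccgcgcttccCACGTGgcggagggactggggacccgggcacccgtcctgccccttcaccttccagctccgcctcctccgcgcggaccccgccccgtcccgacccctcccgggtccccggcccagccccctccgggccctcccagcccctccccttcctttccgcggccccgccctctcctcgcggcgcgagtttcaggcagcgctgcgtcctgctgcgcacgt

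USF1 peaks shared by both lists, meaning that they overlapped by at least 1 bp, were present at 7 of the 10 genes: MTDH, GPC3, MET, TGFBR2, CDKN2A, CDKN2B and ARID1A. SND1 had peaks in each list at different places, TERT had peaks in list 2 and none in list 1, and KEAP1 had none in either. By list, 8 genes had a peak in list 1 and 9 in list 2. Among all protein-coding genes the corresponding shares were 32.7% in list 1, 56.8% in list 2 and 21.6% for shared peaks (95% Wilson interval 21.0 to 22.1%). Because the genes were listed with earlier results of these data known, nothing is read from that difference. Gene length also moves with the count. The listed genes had a median length of 86084 bp, against 24130 bp over all protein-coding genes, and 6 of them fell among the longest 20% (83510 bp or more), of which 29.0% had a shared peak. Among the shortest 20%, which include CDKN2B, it was 15.4%. The part of length in the count was not tested.

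The strength of these peaks was uneven. The fold over input, given by the authors as summit tags in the IP over those expected, reached 28.69 and 47.81 at MTDH in lists 1 and 2. At the other shared peaks of the listed genes it lay between 4.17 and 11.3. With 8 shared pairs at 7 genes, MTDH was the only gene at which the peak had a false discovery rate (FDR) of 5% or less in both lists. The FDR is the peak caller's own estimate, in percent, from a run with the roles of IP and input exchanged. In list 1 the MTDH peak was the 1 of 14 below 5% and 7 were at 100%, whereas 11 of 18 were below 5% in list 2. Over all peaks, 1.92% of list 1 and 30.8% of list 2 had an FDR of 5% or less.

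**Figure D1:**
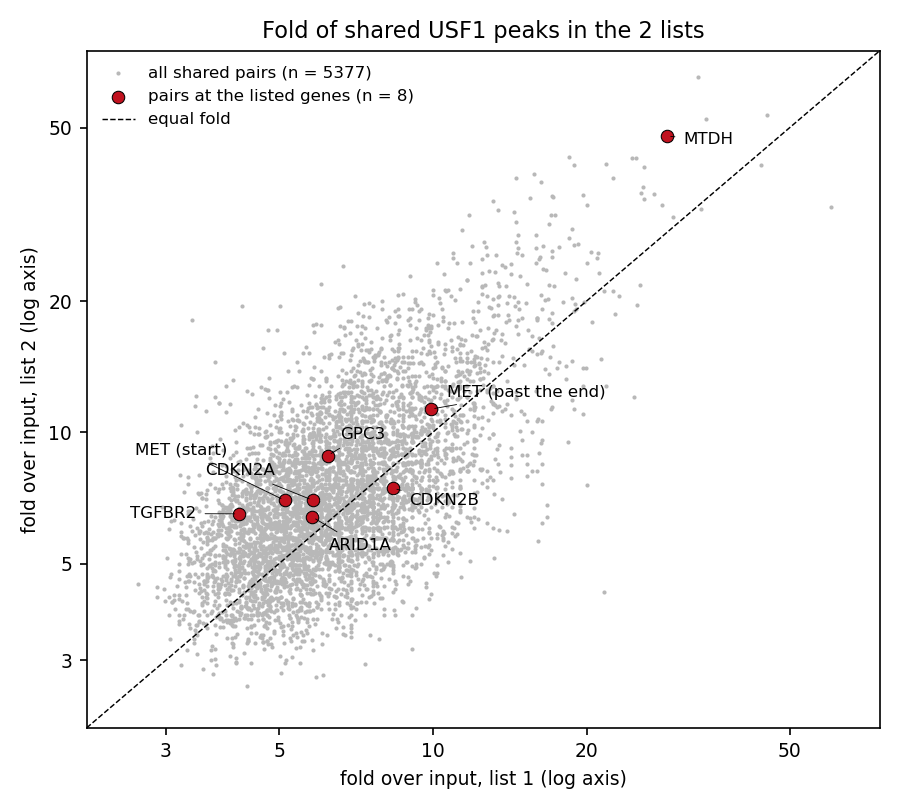
Fold over input in list 1 (x axis) and list 2 (y axis), both on log axes, for 5377 overlapping pairs of peaks (grey) and the 8 pairs at the listed genes (red). MTDH stands at 28.69 and 47.81, apart from the other 7 pairs, which lie within the grey cloud. The dashed line marks equal folds.

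MTDH lies at positions 97644184 to 97730260 of chromosome 8. Its peak spanned positions 97643589 to 97644563 (975 bp) in list 1 and 97643601 to 97644901 (1301 bp) in list 2. The overlap of 963 bp covered 98.8% of the list 1 peak and 74.0% of the list 2 peak. Both summits lay just outside the gene's start coordinate, at 58 bp from it in list 1 and 38 bp in list 2, and were 20 bp apart.

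IP tags in the MTDH peak numbered 168 in list 1, or 3.56 counts per 1e6 kept IP tags (CPM, 95% Poisson interval 3.04 to 4.14), and 229 in list 2, or 5.21 CPM (4.56 to 5.93). These intervals cover counting error only. The mean was 4.39 ± 1.17 CPM (SD, n = 2), and 3.83 ± 0.249 CPM per kb of peak width (SD, n = 2). The list 2 peak was 1.33 times as wide, and per kb the lists held 3.65 CPM (list 1) and 4.01 CPM (list 2). By fold the peak ranked 8th of 14300 in list 1 and 4th of 27325 in list 2, and by tags 428th and 554th. Among 1907 shared peaks with a centre within 1 kb of a protein-coding gene end it ranked 6th by the lower of its folds and 173rd by the lower of its CPM.

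The gene-end peaks most like that of MTDH, by distance in the log2 folds of the 2 lists among 1922 other pairs, were at IGF2R, MCOLN1 and CEP162. IGF2R, the mannose 6-phosphate receptor that sorts lysosomal enzymes, had folds of 25.0 and 42.5 (distance 0.261). MCOLN1, a lysosomal cation channel, had 25.96 and 40.65 (0.275), and CEP162, a centriole protein, had 24.55 and 42.5 (0.282). The likeness rests on 2 lists. All 3 genes have a RefSeq promoter window that holds CACGTG, as did 70.3% of all windows whose shared peak had both folds at 8 or more.

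MTDH also had a weaker peak in list 1, with its summit 5209 bp into the gene, with 34 tags, a fold of 6.19 and an FDR of 100%. It had no counterpart in list 2. The next peak beyond the 10 kb window was 18881 bp from the gene in list 2 (fold 5.98) and 45666 bp in list 1 (fold 6.58).

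SND1, the binding partner of MTDH, had no shared peak along its 440400 bp. In list 1 the single peak (34 tags, fold 5.04, FDR 100%) had its summit 326522 bp downstream of the start. In list 2 a peak of 1450 bp and 101 tags covered the start. Its summit was 601 bp upstream, and its centre lay 60 bp from the end of the divergent non-coding gene SND1-DT. Its fold of 2.86 ranked 27207th of 27325. A further list 2 peak of fold 5.98 (45 tags) had its summit 232495 bp into the gene. Neither place carried a peak in list 1. Of the other partners of MTDH and SND1, RELA, a subunit of NF-kB, had a shared peak of 3.82-fold in list 1 and 3.77-fold in list 2, and AGO2, the slicer of RNA silencing, had 3.56-fold and 4.1-fold. ZBTB16, BCCIP and CREBBP had none, so 3 of 7 genes of that list had a shared peak, MTDH included. FDRs in lists 1 and 2 were 90.64% and 20.53% at RELA and 100% and 1.4% at AGO2.

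MET carried the most peaks of the 10 genes over both lists together, 3 in list 1 and 5 in list 2, and 2 in each were shared. The first lay on its start. It had 84 tags over 1202 bp in list 1 (1.78 CPM, 1.42 to 2.20) and 147 tags over 1967 bp in list 2 (3.35 CPM, 2.83 to 3.93). The list 2 peak was wider, and per kb of width the lists held 1.48 CPM (list 1) and 1.70 CPM (list 2). Folds were 5.13 and 6.98, and FDRs 40.15% and 0.10%. Summits lay 64 bp and 118 bp upstream of the start. The CACGTG in the MET window, at positions 116672199 to 116672204, begins 3 bp downstream of the start and lies 69 bp from the list 1 summit and 123 bp from that of list 2. A non-coding gene, COMETT, also runs through this region.

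The other shared MET peak, 4617 bp beyond the gene's far end in list 1, had the second highest fold of the shared peaks at the listed genes in each list. Its folds were 9.90 and 11.30 with 71 and 59 tags, or 1.51 CPM (1.18 to 1.90) in list 1 and 1.34 (1.02 to 1.73) in list 2. These intervals overlapped. The remaining peaks, 1 in list 1 and 3 in list 2, were inside the gene and unshared, with folds of 5.14 to 6.49. Just past the window, list 2 had a peak of 5.17-fold at 15867 bp.

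TGFBR2 had a shared peak at its start, with 55 tags over 903 bp in list 1 (1.17 CPM, 0.878 to 1.52) and 119 tags over 1696 bp in list 2 (2.71 CPM, 2.24 to 3.24), or 1.29 CPM (list 1) and 1.60 CPM (list 2) per kb of width. Folds were 4.17 and 6.50, and FDRs 100% and 0.49%. The table gives a pair of starts for this gene, and the summits lay 62 bp and 39 bp upstream of the downstream one. The predicted gene LOC105377015 overlaps this place. CACGTG was in neither window. The second CAGCTG of the sequence shown above, at 30606541 to 30606546, was 4 bp from the list 1 summit and 19 bp from that of list 2. List 1 alone had a peak 8960 bp from the gene, just inside the 10 kb limit, and another 24778 bp downstream of that start.

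CDKN2A and CDKN2B are neighbours on chromosome 9, and each had 1 shared peak at a start. CDKN2A has an outer start, used for the ARF transcript, and an inner one, used for p16. The peak was at the inner start. It held 27 tags over 555 bp in list 1 (0.572 CPM, 0.377 to 0.833) and 82 tags over 1462 bp in list 2 (1.87 CPM, 1.48 to 2.32). The ratio of list 2 to list 1 was 3.26 in CPM and 2.63 in width, and per kb of width the lists held 1.03 CPM (list 1) and 1.28 CPM (list 2). The folds were 5.83 and 6.98, and the FDRs 100% and 0.3%. The list 1 summit was 253 bp upstream of the inner start and the list 2 summit 37 bp downstream, 290 bp apart. The inner window holds no CANNTG, and the outer one was not overlapped by a peak.

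CDKN2B, whose product p15 is induced by TGF-beta, had a peak of 47 tags over 835 bp in list 1 (0.996 CPM, 0.732 to 1.33) and 71 tags over 1272 bp in list 2 (1.62 CPM, 1.26 to 2.04). Its fold was the higher in list 1, at 8.35 against 7.44 in list 2, the opposite of the other 7 pairs. FDRs were 59.34% in list 1 and 0.3% in list 2. Summits lay 132 bp and 120 bp upstream of the start and 12 bp apart. The window holds no CACGTG, and its CAGCTG was 99 bp and 87 bp from the summits. The antisense gene CDKN2B-AS1 spans this position as well. The CDKN2B peak was just outside the window of CDKN2A, at 14083 bp in list 1.

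**Figure D2:**
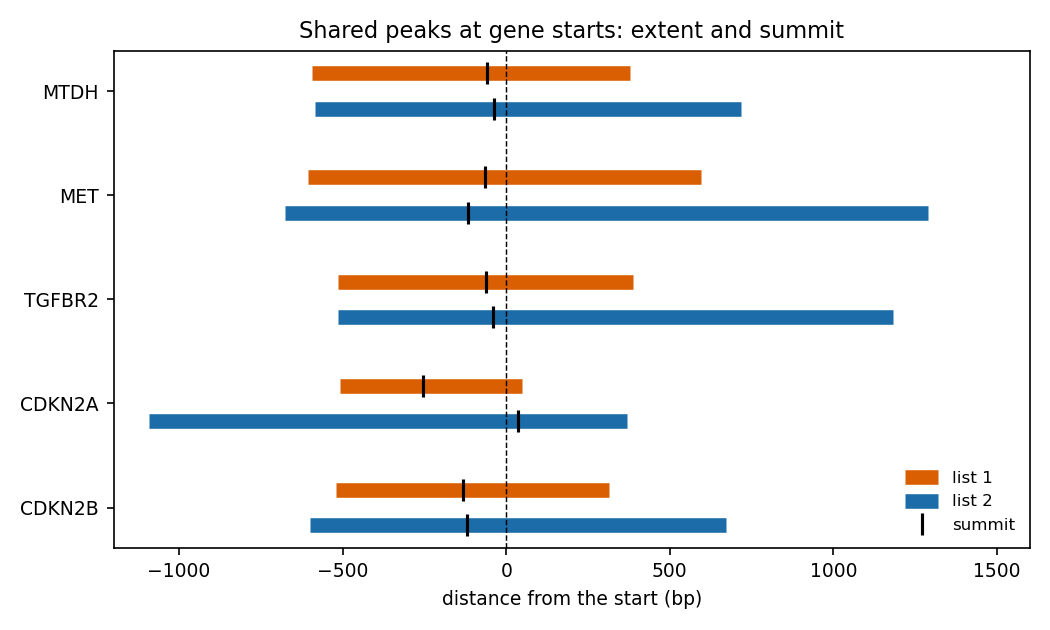
Extent (bars) and summit (black marks) of the shared peak at the start of 5 listed genes, as distance in bp from the start, with list 1 above list 2. Positive values run into the gene: for MTDH the start coordinate of the gene is 0, and for the others the nearest RefSeq start on the gene's strand. In all 5 genes the list 2 bar is the wider, as was the list 2 peak in 66.0% of all 5377 shared pairs. Every summit lies within 253 bp of the start.

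GPC3 and ARID1A had their shared peaks inside the gene. In GPC3, which spans 449850 bp of chromosome X, the peak was 30.6% of the way from the start coordinate to the end coordinate, with 39 tags in list 1 (0.827 CPM, 0.588 to 1.13) and 41 in list 2 (0.933 CPM, 0.670 to 1.27). Folds were 6.22 and 8.84, FDRs 100% and 5.70%, and the summits were 1 bp apart. List 2 alone had a second peak, at 48.1% of the length, with 38 tags and a fold of 9.56.

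ARID1A had 59 tags in list 1 (1.25 CPM, 0.952 to 1.61) and 51 in list 2 (1.16 CPM, 0.864 to 1.53), with folds of 5.80 and 6.40 and FDRs of 97.0% and 3.14%. The summits, 57 bp apart, lay 27468 bp and 27525 bp downstream of the start, and the promoter window was free of peaks. The overlap covered 62.1% of the list 1 peak and 77.1% of the list 2 peak. A list 1 peak of 4.22-fold beyond the gene's end lay inside PIGV, and a list 2 peak of 4.80-fold was 75941 bp downstream of the start.

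**Figure D3:**
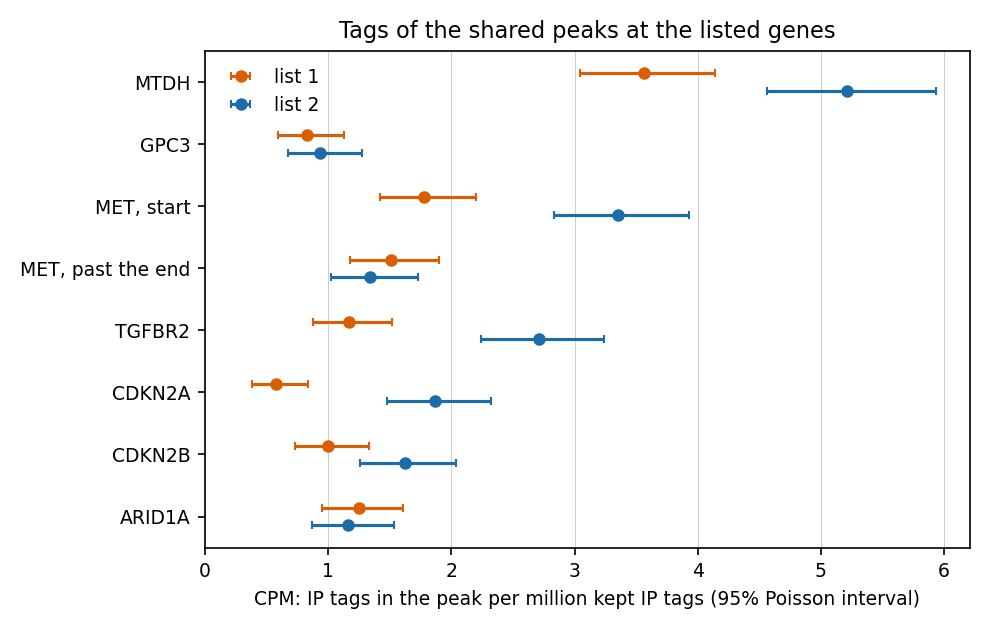
IP tags in CPM (x axis) in the 8 shared peaks at the listed genes, with 95% Poisson intervals that cover counting error, for list 1 and list 2. The intervals do not overlap at MTDH, the MET start, TGFBR2 and CDKN2A, and overlap at the other 4 peaks. The share of all shared pairs with intervals apart was not computed. Over all 5377 pairs, the CPM was higher in list 2 at 71.7%. The tags are not scaled to peak width, which differs between the lists.

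Of the 8 shared pairs, the 5 that spanned a start had 1.46 to 3.26 times the CPM in list 2 as in list 1 and were 1.33 to 2.63 times as wide. The 3 away from a start had 0.892 to 1.13 times the CPM and 0.805 to 1.21 times the width. The split was made after these values were seen. Over all pairs, split by another rule that does not count the CDKN2A pair at a gene end, the differences were smaller. Those with a centre within 1 kb of a gene end (n = 1923) had a median list 2 to list 1 ratio of 1.24 in CPM and 1.17 in width, against 1.18 and 1.09 elsewhere (n = 3454). The fold was higher in list 2 at 7 of 8 pairs and at 62.7% of all 5377. Tags in a peak depend on its width, and the 2 libraries were not tested against each other.

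TERT, on chromosome 5, had 3 peaks in list 2 and none in list 1. They were broad, at 4670 bp, 2238 bp and 6413 bp, and held 541, 256 and 600 tags, or 12.3, 5.83 and 13.7 CPM. By width they ranked 111th, 1281st and 34th of 27325, and by tags 53rd, 409th and 34th. Their folds were modest, at 4.38, 4.81 and 5.13, with FDRs of 0.31%, 3.29% and 2.22%. Per kb of width they held 2.13 to 2.64 CPM, against 4.01 CPM at MTDH in list 2. The list 2 peaks of the other listed genes held at most 1.70 CPM per kb.

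The widest TERT peak, at chr5:1291320-1297732, covered the gene's start, and its centre also lay inside another protein-coding gene, LOC124905596. Its summit was 3289 bp downstream of the TERT start. The TERT window holds a CACGTG at 1295226 to 1295231, 163 bp upstream of the start and 3449 bp from that summit. In list 1 the nearest peak was 340660 bp away, inside TRIP13, with 341 tags and a fold of 3.84. KEAP1 had no peak within 10 kb in either list. The nearest was 62622 bp away in list 1, at the facing ends of KRI1 and CDKN2D, and 25002 bp away in list 2, inside PDE4A. Their folds were 6.0 and 4.25. The KEAP1 windows hold 3 CANNTG but no CACGTG.

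Promoter windows were overlapped by a peak of list 1 at 5 of 11, of list 2 at 7 of 11 and of both at 5 of 11, which belonged to 4 genes. Over 22198 windows of protein-coding genes these shares were 14.3%, 28.6% and 11.2%. CACGTG was found in 8.34% of all windows. It was in 28.2% of the 2490 windows overlapped by a shared peak, in 70.3% of the 418 whose shared peak was at least 8-fold in both lists, and in 5.00% of those with no peak. Of the 11 windows of the listed genes it was in those of MET and TERT. The longer forms CACGTGAC or GTCACGTG were in 0 of 11 and in 3.08% of all windows. CANNTG, which includes all of these, was in 9 of 11 and in 65.1%. A match describes these letters, not a binding site.

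Genes of the same pathways were counted by the same rule, and of 129 listed genes outside the 10, 41 had a shared peak (31.8%, against 21.6% of all protein-coding genes). Their median length was 31592 bp, and the counts were not tested. Of all 139 genes of the lists, members included, 4 had a shared peak with an FDR of 5% or less in both lists. Among all protein-coding genes this share was 1.83%. Among the G1 kinases, their inhibitors and RB, 7 of 13 had a shared peak. Besides the 2 inhibitors above, CDK4, the kinase they block, had folds of 18.45 and 27.92, and CDKN2C, a further inhibitor, 14.39 and 20.43. The CDKN2C peak also lay at an end of FAF1. Both had an FDR of 0 in each list, unlike CDKN2A and CDKN2B.

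In the KEAP1-NRF2 pathway 8 of 17 genes had a shared peak, although KEAP1 had none. MAFG, a partner of NRF2 on DNA, had folds of 15.28 and 21.9. SQSTM1, which competes for KEAP1, had 7.61 and 9.32, and HMOX1, a heme-degrading target of NRF2, had 7.37 and 14.51. Of the TGF-beta pathway, 7 of 15 had one. The signal transducer SMAD2 had 5.32-fold and 9.92-fold, the inhibitor SMAD7 6.45-fold and 5.22-fold, and LTBP1, which anchors latent TGF-beta, 4.76-fold and 4.96-fold. List 1 FDRs of these 3 were 71.28 to 100%. The TGF-beta list had a median gene length of 81895 bp. Within 1 kb of a gene end its count was 3 of 15, against 11.3% of all protein-coding genes.

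Among genes recurrently altered in hepatocellular carcinoma, 15 of 32 had a shared peak, 3 of them members of the set of 10 (MET, CDKN2A and ARID1A). TSC2, a brake on mTORC1, had 10.0-fold and 20.67-fold at an end it shares with NTHL1, and EEF1A1, a translation elongation factor, 7.85-fold and 13.39-fold. Glypicans had one in 3 of 6, namely GPC3, GPC5 (10.2-fold and 9.9-fold) and GPC6 (8.37-fold and 6.86-fold). This list had a median gene length of 282618 bp, and within 1 kb of a gene end its count was 0 of 6. List 1 FDRs were 100% at GPC3, 24.16% at GPC5 and 10.22% at GPC6.

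Within 10 kb, counts nearer to that of all genes or below it were found in 4 lists. SWI/SNF subunits had a shared peak in 6 of 27 (22.2%), with PBRM1 at 6.59-fold and 9.67-fold, at an end of UQCC5, and BCL7C at 5.18-fold and 7.87-fold. The MET pathway had 2 of 12 (16.7%), MET itself and the adaptor GRB2 (7.21-fold and 6.38-fold). Telomerase and shelterin genes had 1 of 12 (8.33%), NHP2 of the telomerase particle, with 5.03-fold and 7.35-fold. A list 2 peak was at 7 of these 12, close to the 56.8% of all protein-coding genes. Serum and tissue markers of liver tumours had 1 of 12 (8.33%), GPC3. This order depended on the window. Within 50 kb, 14 of 27 SWI/SNF, 5 of 12 MET pathway and 5 of 12 telomerase and shelterin genes had a shared peak. So did 2 of 12 marker genes, against 37.3% of all protein-coding genes. The SWI/SNF count was then above that share, and both counts of 5 of 12 were close to it.

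**Figure D4:**
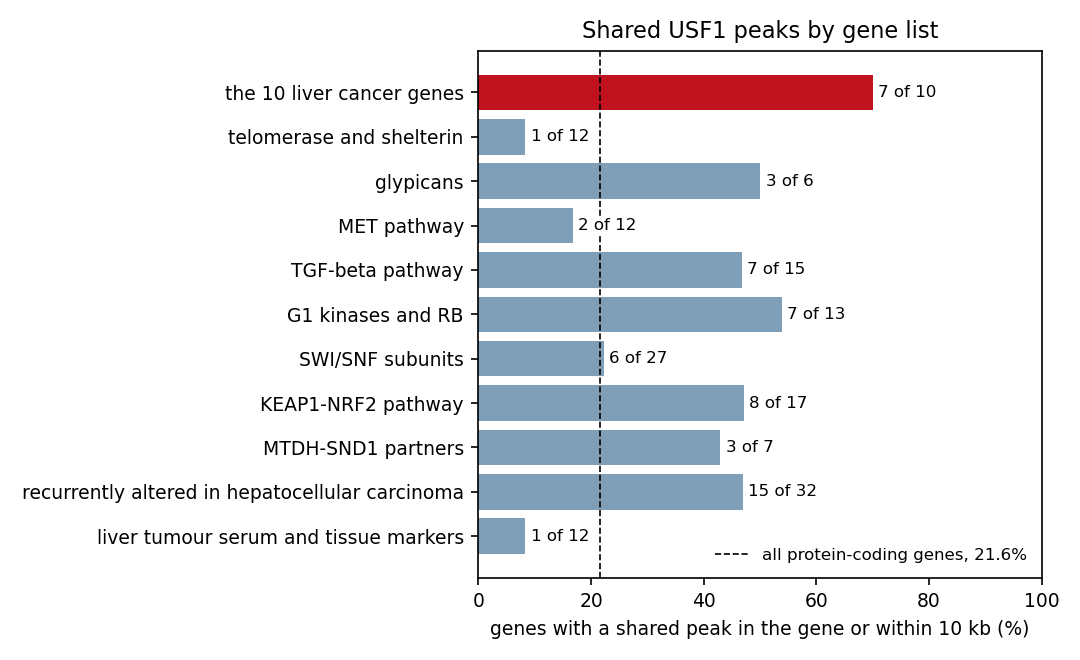
Percent of genes with a shared peak in the gene or within 10 kb, for the 10 liver cancer genes (red) and 10 gene lists (blue), with counts beside the bars. The dashed line is the share among all protein-coding genes, 21.6%. The telomerase, marker and MET pathway lists stand to its left, and the SWI/SNF list is close to it. All other bars stand to its right.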

How the data were processed

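USF1 ChIP-seq of Huh7 cells was analysed as 2 peak lists, each an IP against the input of the same number. The authors used the peak caller MACS 1.4.2 (p cutoff 1e-05, at most 1 tag per position) on each replicate separately, per the file headers. Bowtie2, deepTools, HOMER and GRCh38 are named, with no role, per the submitters' processing notes. The deposited values of a peak are a tag count from the IP library, not scaled to depth, a fold ratio over input, a score of minus 10 times log10 of p, and an FDR in percent with a ceiling of 100. All folds, scores and FDRs of peaks are the authors' own values.

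Here tags were divided by the kept IP tags and given per 1e6 (CPM), with exact Poisson intervals. Summits are the start plus the deposited offset. Genes and promoters came from RefSeq tables of GRCh38.p14; all 139 genes of the lists matched a symbol, and 15842 protein-coding genes had a promoter window. Exons and introns are not given. With 2 lists and no input count per peak, no test between groups was made. Genes named from each list were the 3 with the highest lower fold. The genes, lists and rules were chosen with earlier results of these data known. The assignment of peaks to genes was checked on simulated data. Python 3.11.15, numpy 2.4.6, pandas 2.3.3, scipy 1.17.1 and matplotlib 3.10.9 were used.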

Additional observations from a re-analysis of the deposited data

How the results depend on the processing

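The same 7 genes kept a shared peak with a window of 1 kb and with summits in place of centres. An overlap of 50% of the shorter peak also kept all 7, and summits within 200 bp kept 6, without CDKN2A. A window of 50 kb, which can only add genes, added none. The count was 4 within 1 kb of a gene end alone (MTDH, MET, TGFBR2, CDKN2B), 4 with the shared peak on a promoter window (added after seeing the data; MTDH and GPC3 have no window), 3 at a p of at most 1e-10, 2 at a fold of at least 8 (MTDH, MET) and 1 at an FDR of at most 5% (MTDH). Either list alone gave 8 to 9. Of all protein-coding genes, 16.8% had a shared peak under the 1 kb window and 18.3% with summits within 200 bp. Summits in place of centres gave 21.6%, and the 50% overlap 21.5%. For the promoter-window rule no share of genes was computed, only that of windows overlapped by a shared peak, 11.2%. Among all protein-coding genes the share was 37.3% with a window of 50 kb, 11.3% within 1 kb of a gene end, 8.38% at that p, 4.36% at that fold, 1.83% at that FDR, and 32.7 to 56.8% in either list alone. Of the pathway genes, 10 members included, 48 had a shared peak, against 26, 19, 7 and 4 under the gene-end, p, fold and FDR rules and 63 to 96 in either list alone. MTDH ranked 13th by score and 173rd by CPM, and 3rd to 6th by the fold of 1 list. Its fold was 28.69 to 47.81 and its CPM 3.56 to 5.21 in either list alone. In place of the 2 genes with CACGTG, 7 had CANNTG and 0 the longer form. No paired analysis was possible because the files hold no input count per peak, only IP values already set against the matching input. By list, a window of 50 kb gave 14 of 27 SWI/SNF, 5 of 12 MET pathway and 5 of 12 telomerase and shelterin genes, against 6, 2 and 1 within 10 kb. The fewest tags behind a shared peak of the 10 genes were the 27 of CDKN2A in list 1 (95% Poisson interval 0.377 to 0.833 CPM).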
